A study of Mus musculus with 4 samples.

Results

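The Rab genes encode small GTPases of the Ras superfamily that direct membrane traffic. They were taken from the array as every gene with a probe set whose annotation gives 1 symbol made of Rab, a number and at most 1 letter. This gave 59 genes out of 18193, measured by 132 probe sets. The brightest probe set by mean log2 signal stood for each gene, and 52 of the 59 were bright enough to be tested. The arrays held RNA of mouse J1 embryonic stem cells, all of the line Chd4i-1, in which doxycycline switches on RNAi against Chd4. Chd4 is a chromatin remodeller and the ATPase subunit of the NuRD complex. The cells grew on gelatin in serum medium with leukaemia inhibitory factor. The control group (2 arrays) received no doxycycline and the Chd4 RNAi group (2 arrays) 5 ng/ml for 3 days. No day was listed for the control group, so its time in culture cannot be compared. The submitters describe the duplicates as biological without saying whether they were separate cultures, so p-values measure only the spread between these arrays. The comparison asks which transcripts differ when Chd4 is depleted, but both groups carry the same construct and no treated line without it was analysed here, so doxycycline, RNAi and Chd4 loss cannot be told apart.

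A Rab protein switches between a GDP-bound form, held in the cytosol by a GDP dissociation inhibitor, and a GTP-bound form on a membrane. Guanine nucleotide exchange factors (GEFs) switch it on at a given organelle, GTPase-activating proteins (GAPs) switch it off, and the active form recruits effectors such as tethers, motors and sorting factors. Each Rab marks a limited set of compartments, so the family is often described as an address system for the endoplasmic reticulum (ER), Golgi, endosomes, lysosomes and plasma membrane. Rab25 and Rab17 are known mainly from polarised epithelia. Some others are also known mainly from certain tissues, such as Rab6b from brain, while many are expressed widely.

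The results turn most on Rab25 and Rab17, which showed the largest rises, and on the pairs of like-numbered genes Rab4a and Rab4b and Rab6a and Rab6b. RefSeq promoter windows (build GRCm38.p6) were found for 48 of the 59 genes and not for Rab4a. The 250 bases before the start site are shown, 5′ to 3′ on the strand of the gene, for Rab25 and Rab17 as the largest rises, for Rab6a as a rise in a bright gene and for Rab4b as a fall. Capitals mark CG dinucleotides, the sites at which mammalian DNA is mostly methylated. The windows lie at chr3:88548280-88548529 (minus strand) for Rab25, chr1:90967668-90967917 (minus) for Rab17, chr7:100607336-100607585 (plus) for Rab6a and chr7:27178884-27179133 (minus) for Rab4b.
Rab25: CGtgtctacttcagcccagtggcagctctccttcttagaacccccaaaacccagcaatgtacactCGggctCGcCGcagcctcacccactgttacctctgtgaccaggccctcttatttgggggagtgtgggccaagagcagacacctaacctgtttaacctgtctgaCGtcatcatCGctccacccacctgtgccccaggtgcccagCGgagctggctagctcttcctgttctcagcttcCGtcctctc
Rab17: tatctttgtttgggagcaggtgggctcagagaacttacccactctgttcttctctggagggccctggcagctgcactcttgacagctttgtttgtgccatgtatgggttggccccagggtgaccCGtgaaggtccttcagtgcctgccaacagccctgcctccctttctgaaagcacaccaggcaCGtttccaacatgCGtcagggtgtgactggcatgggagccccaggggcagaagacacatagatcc
Rab6a: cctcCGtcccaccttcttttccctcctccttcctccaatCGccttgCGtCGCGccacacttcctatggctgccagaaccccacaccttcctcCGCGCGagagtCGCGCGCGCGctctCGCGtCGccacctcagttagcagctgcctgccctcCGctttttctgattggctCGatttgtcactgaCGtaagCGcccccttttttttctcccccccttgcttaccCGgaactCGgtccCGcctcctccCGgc
Rab4b: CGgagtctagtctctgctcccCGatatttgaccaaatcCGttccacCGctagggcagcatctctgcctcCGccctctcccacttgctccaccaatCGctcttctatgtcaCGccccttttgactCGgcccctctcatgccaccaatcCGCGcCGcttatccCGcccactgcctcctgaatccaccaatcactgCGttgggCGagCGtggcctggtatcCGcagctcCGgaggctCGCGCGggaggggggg

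The Rab17 window held 3 CG dinucleotides and that of Rab25 held 8, against 24 for Rab6a and 20 for Rab4b. Over all 60 listed starts of the Rab genes the median was 15, and over 32851 starts of all genes it was 6. Both Rab25 and Rab17 held the E-box letters CACCTG on one strand or the other, which 15.0% of Rab starts and 17.2% of all starts did. The GC-box letters GGGCGG, searched on both strands, were in 66.7% of Rab starts and 32.7% of all starts, and in the Rab4b window but not in those of Rab25, Rab17 or Rab6a. The E-box letters CACGTG were in 8.33% of Rab and 6.02% of all starts, and the TATA-box letters TATAAA in 6.67% and 12.4%, with neither in any of the 4 windows shown. These letter counts describe the windows, and neither methylation nor binding was measured here.

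All 3 probe sets of Chd4 were lower on both Chd4 RNAi arrays, with geometric mean signals of 48.5%, 56.1% and 65.0% of control. The embryonic stem cell marker list had a summed signal of 105059 and 107097 on the control arrays and of 106412 and 108677 on the Chd4 RNAi arrays, with all 8 markers above the median signal of all probe sets (76.0), Utf1 and Dppa5a higher and Esrrb lower. Without the 2 that were higher, but with Esrrb kept, the sum was 78178 to 79767 on the control arrays. On the Chd4 RNAi arrays it was 75934 to 76643. Leaving out only markers that rose lowers the Chd4 RNAi sum relative to control by selection, so this is no sign of a general fall. Of the 6 markers left, 3 had a positive difference and 3 a negative one. Of the fibroblast, primitive endoderm and trophectoderm lists, 3 of 6 markers each stayed under that median on every array, as did 1 of 5 neural and 1 of 4 blood markers. Summed signals were 449 to 536 in control and 786 to 888 in Chd4 RNAi arrays for fibroblast markers (Thy1 passed as higher), 351 to 454 and 489 to 572 for trophectoderm (Krt7 higher) and 1600.3 to 1658 and 1737 to 1739 for neural markers (Tubb3 higher). Each of these 3 rises came from 1 gene: without Thy1 the fibroblast sums were 274 to 337 and 239 to 288, without Krt7 those of trophectoderm 282 to 381 and 272 to 322, both overlapping, and without Tubb3 those of the neural markers were lower, at 382 to 439 and 198 to 275. Most of this neural fall lay in Sox1, which went from 129 and 183 to 21.3 and 5.40, with its mean under the filter and so not tested. Of the other neural markers besides Tubb3, Pax6 and Nes did not pass and Neurog2 was too dim to be tested. The neural sum, too, left out only the marker that rose. Sums overlapped between groups for primitive endoderm (316 to 353 and 339 to 403) and blood (277 to 298 and 249 to 299). In bulk RNA, a change in the share of cells of one kind and a change in transcript per cell cannot be told apart.

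Of the 52 tested Rab genes 7 were higher and 3 lower in Chd4 RNAi cells by limma at an adjusted p under 0.05, or 19.2%. Among all 12615 genes tested 20.5% passed, 11.7% as higher and 8.81% as lower, so the Rab genes passed at about the background rate. At an unadjusted p under 0.05 by limma, 12 Rab genes were higher and 3 lower, beside 2363 and 1899 of all 12615 genes. These counts over all genes are also the background of the unadjusted counts by role below. The signals of the 2 groups did not overlap for 30 Rab genes (57.7%), against 60.6% of all genes. The median log2 difference, Chd4 RNAi minus control, was 0.063 for the Rab genes and 0.014 for all genes, and the median size regardless of sign was 0.19 and 0.21. Rises were seen for Rab25, Rab17, Rab4a, Rab33a, Rab6b, Rab27a and Rab6a, and falls for Rab4b, Rab34 and Rab29. Of these only Rab25 and Rab17 changed at least 2-fold. Without the intensity trend of the variance model the one Rab gene to pass was Rab4a, and in a test against a change of 1.2-fold Rab25, Rab17 and Rab4a passed.

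**Figure D1:**
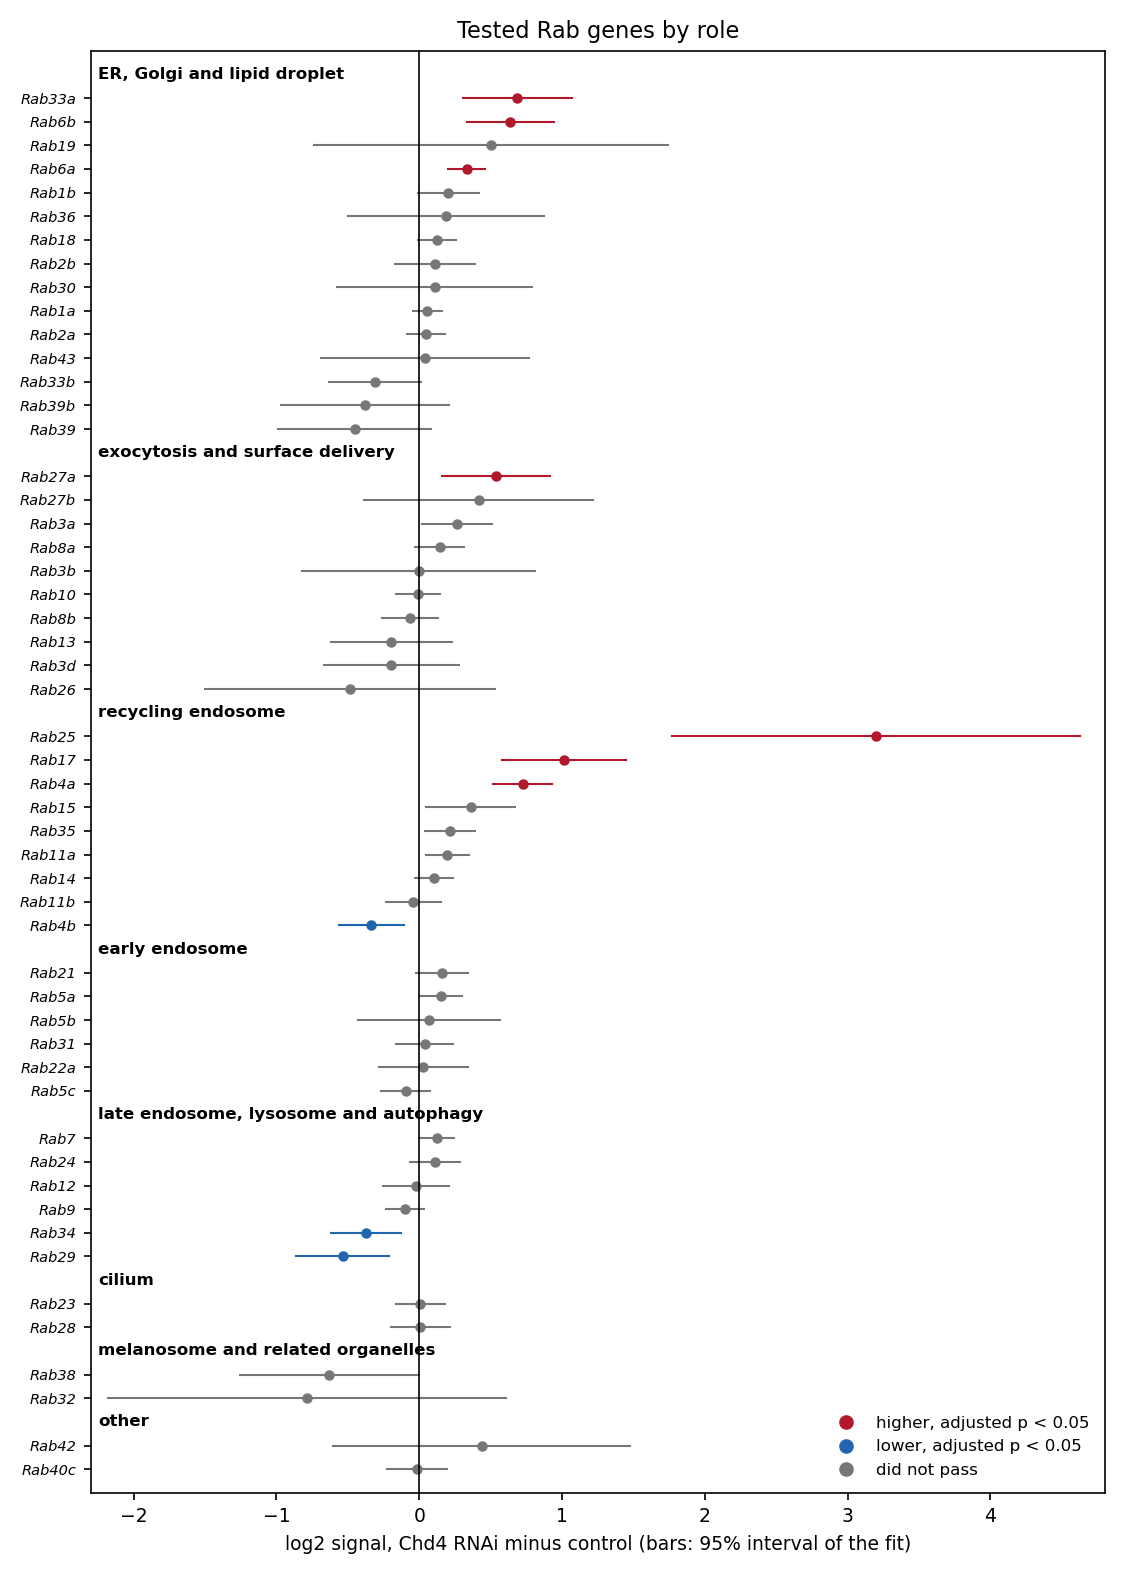
Log2 signal in Chd4 RNAi minus control for the 52 tested Rab genes, grouped by role, with points for the difference and bars for the 95% interval of the limma fit (2 arrays per group). The 7 genes that passed as higher are red, the 3 that passed as lower are blue and the others grey; Rab25 lies farthest from 0, at 3.20, with the widest interval of the genes that passed.

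Recycling endosome genes held the 3 largest of the changes that passed. These GTPases return internalised receptors and adhesion proteins to the surface, either directly or through a perinuclear compartment. All 9 were tested, with 3 higher (Rab25, Rab17 and Rab4a), 1 lower (Rab4b) and 5 that did not pass. Thus 44.4% passed, beside 20.5% of all genes. The group is small and the roles were chosen with earlier results known, so this share only describes these genes.

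Rab25 is a close relative of Rab11 with a known role in apical recycling and integrin traffic in epithelial cells. Its signals were 41.0 and 8.05 on the control arrays and 185 and 151 on the Chd4 RNAi arrays. Both control values lay under the median of all probe sets and both Chd4 RNAi values above it, and the groups did not overlap. The log2 difference was 3.20 ± 0.65 SE (95% interval 1.77 to 4.63, adjusted p = 0.00559). With dim signals raised to that median the rise was at least 2.20-fold, a bound that allows for dim signals only. The size rested on the controls, as it was 4.37 without control replicate 1 and 2.03 without control replicate 2, both still past the threshold. Rab25 has 1 probe set, and its control mean was under the filter on dim signals, so it entered the test through the Chd4 RNAi arrays.

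Rab17, which acts in apical recycling and transcytosis in epithelia, had signals of 124 and 153 on the control arrays and of 271 and 287 on the Chd4 RNAi arrays. Both Chd4 RNAi arrays were above both controls. It rose 2.02-fold (log2 difference 1.01 ± 0.20 SE, adjusted p = 0.00456). Its other probe set, dimmer at 39.5 and 65.4 against 48.8 and 93.3, overlapped between groups (log2 0.41, adjusted p = 0.625 among probe sets). The call ended when both probe sets were averaged (log2 0.71, adjusted p = 0.189). The keratin gene Krt7, which went from a mean signal of 71.0 to 233, was higher on the arrays where Rab25 and Rab17 were. This direction was shared by all 1480 genes that passed as higher, so it does not tie Krt7 to Rab25 or Rab17. The trophectoderm markers Eomes and Hand1 were above the median of all probe sets on every array and overlapped between groups. Cdx2, Elf5 and Gata3 were under that median on every array and too dim to be tested. Their groups did not overlap, with Cdx2 and Gata3 higher and Elf5 lower on the Chd4 RNAi arrays. Groups did not overlap for 60.6% of all tested genes either, so this separation of dim signals is not particular to these markers. The summed signal of the 5 trophectoderm markers other than Krt7 overlapped between groups.

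Rab4a and Rab4b encode near relatives that act in fast recycling from early endosomes, and they changed in opposite directions. Rab4a gave 688 and 672 on the control arrays and 1156 and 1091 on the Chd4 RNAi arrays, with a gap between the groups far wider than the spread within them. Rab4a rose 1.65-fold (log2 0.72 ± 0.093 SE, adjusted p = 0.000348). Its other probe set went the same way, from 497 and 478 to 640.0 and 770.1 (log2 0.53 ± 0.12, adjusted p = 0.0161 among probe sets). The brighter probe set has the suffix _s_at, which Affymetrix gives to sets that can match transcripts of more than one gene. Rab4a was the only Rab gene to keep its call in all 13 alternatives.

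Rab4b, by contrast, gave 812 and 898 on the control arrays and 701 and 654 on the Chd4 RNAi arrays. The groups did not overlap, and the fall was 1.26-fold (log2 -0.34 ± 0.10 SE, adjusted p = 0.0406). Rab4b has 1 probe set, which did not pass when probe sets were fitted in place of genes (adjusted p = 0.0560). The call was kept in 2 of 13 alternatives. It ended without any one of the 4 arrays, at -0.41 without control replicate 1, -0.26 without control replicate 2, -0.39 without Chd4 RNAi replicate 1 and -0.29 without Chd4 RNAi replicate 2 (adjusted p between 0.0531 and 0.232).

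The remaining recycling genes did not pass over all genes. Rab11a, the general regulator of the recycling endosome, had signals of 3419 and 3869 on the control arrays and of 4108 and 4230.4 on the Chd4 RNAi arrays (log2 0.20 ± 0.069 SE, adjusted p = 0.0673). Rab35, which acts in recycling at the plasma membrane, had 1506 and 1564 against 1873 and 1702 (log2 0.22, adjusted p = 0.0746). Rab15, known from neurons, had 340.3 and 326 against 395 and 463 (log2 0.36, adjusted p = 0.0966). All 3 had groups that did not overlap and an unadjusted p under 0.05. Rab11a passed without control replicate 2 (0.29, adjusted p = 0.0249) and Rab35 without Chd4 RNAi replicate 2 (0.29, adjusted p = 0.0499). Rab14, of the Golgi to endosome route, had a log2 difference of 0.10 (95% interval -0.031 to 0.23) and Rab11b, the close relative of Rab11a, one of -0.040 (-0.23 to 0.15).

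**Figure D2:**
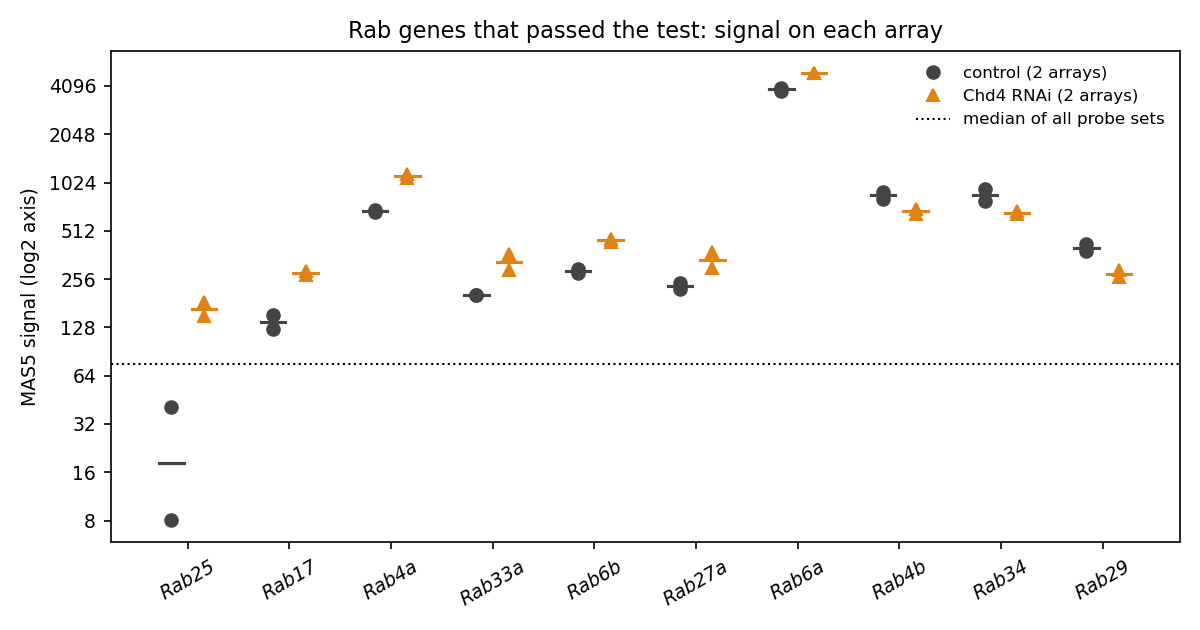
MAS5 signal on a log2 axis for the 10 Rab genes that passed, with each of the 2 control arrays (circles) and 2 Chd4 RNAi arrays (triangles), group means of log2 signal as horizontal bars and the median of all probe sets as a dotted line. The groups are apart for each gene, and only the Rab25 controls, at 41.0 and 8.05, lie under the median of 76.0.

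Among the 15 tested genes of the ER, Golgi and lipid droplets, 3 rose and 0 fell by limma (20.0%, beside 20.5% of all genes), with no member lower at an unadjusted p under 0.05 either. Rab6a and Rab6b both rose. They encode the ubiquitous and the brain-enriched form of Rab6, which acts in retrograde traffic to the Golgi and from the Golgi to the surface. Rab6a gave 3820.2 and 3994 on the control arrays and 4906 and 4924 on the Chd4 RNAi arrays, a 1.26-fold rise (log2 0.33 ± 0.058 SE, adjusted p = 0.00231). Rab6b gave 278 and 296 against 438 and 455, a 1.56-fold rise (log2 0.64 ± 0.14 SE, adjusted p = 0.00754). For each gene the 2 groups were well separated at the brightest probe set.

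The further probe sets of Rab6a and Rab6b showed smaller differences. For Rab6a they were 0.073 and 0.12 on the log2 scale (adjusted p = 0.568 and 0.311 among probe sets). Those of Rab6b were 0.18, 0.12 and -0.33, with adjusted p of 0.620, 0.759 and 0.686. With all probe sets of a gene averaged, both calls ended (Rab6a log2 0.18, adjusted p = 0.0798; Rab6b 0.15, adjusted p = 0.669).

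Rab33a, a Golgi-associated GTPase whose relative Rab33b takes part in autophagosome formation, had signals of 204 on both control arrays and of 365 and 294 on the Chd4 RNAi arrays. The Chd4 RNAi arrays differed more from each other than the controls did, yet both lay above them. It rose 1.61-fold (log2 0.69 ± 0.17 SE, adjusted p = 0.0174). It did not pass when control replicate 2 (log2 0.69, adjusted p = 0.0505) or Chd4 RNAi replicate 1 (0.53, adjusted p = 0.123) was left out. Rab33b had 376 and 352 on the control arrays and 279.8 and 308 on the Chd4 RNAi arrays and did not pass (log2 -0.31, adjusted p = 0.164).

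The other 11 tested members of this group did not pass. Rab1a and Rab1b, which drive transport from the ER to the Golgi, had log2 differences of 0.056 (95% interval -0.045 to 0.16) and 0.20 (-0.012 to 0.42). The further probe sets of Rab1a went the other way without overlap, at -0.22 and -0.70, and did not pass (adjusted p = 0.148 and 0.270 among probe sets). Rab2a and Rab2b, which act between the ER and Golgi, had 0.050 and 0.11, and Rab18, of ER and lipid droplets, had 0.13. Rab30, Rab36 and Rab43 had 0.11, 0.19 and 0.039, all with overlapping signals, and Rab39b had -0.38 (adjusted p = 0.356). The lowest difference was that of Rab39, at -0.45 (adjusted p = 0.220), and the largest among those that did not pass was that of Rab19, at 0.50 (adjusted p = 0.584), whose signals overlapped between groups.

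Exocytosis and surface delivery gave 1 rise among 10 tested genes (10% passed, beside 20.5% of all genes). Rab27a, which docks secretory lysosomes, melanosomes and exosome-producing endosomes at the plasma membrane, had signals of 223 and 243 on the control arrays and of 379 and 300.0 on the Chd4 RNAi arrays. Its groups did not overlap, and it rose 1.45-fold (log2 0.54 ± 0.17 SE, adjusted p = 0.0478). A dimmer probe set went from 60.3 and 64.0 to 147 on both Chd4 RNAi arrays (log2 1.24 ± 0.29, adjusted p = 0.0144 among probe sets), and a further one had a difference of 0.44 (adjusted p = 0.292). The brightest probe set did not pass when probe sets were fitted in place of genes (adjusted p = 0.0625). Its call as a gene ended without control replicate 1 (log2 0.47), without control replicate 2 (0.60) and without Chd4 RNAi replicate 1 (0.37), with adjusted p between 0.0821 and 0.269. The call was kept in 4 of 13 alternatives and was also lost when dim probe sets were not filtered (adjusted p = 0.0821), when signals were floored at the median (0.0846), with probe sets averaged (log2 0.68, 0.150) and with the replicate number as a block (0.0679).

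The partner Rab27b, with 56.7 and 58.8 on the control arrays and 76.0 and 78.2 on the Chd4 RNAi arrays, did not pass (log2 0.42 ± 0.36 SE, adjusted p = 0.465). Of the Rab3 genes, regulators of synaptic and secretory vesicles, Rab3a had 492 and 501 against 599 and 593 (log2 0.26, adjusted p = 0.123). The other Rab3a probe set had a difference of -0.080 and overlapped between groups. Rab3b had a difference of -0.0039 and Rab3d of -0.20, and Rab3c was too dim to be tested. Neither Rab8a nor Rab8b, which act in apical and ciliary delivery, passed (log2 0.14 and -0.065). Rab10, of basolateral and glucose transporter traffic, had a log2 difference of -0.011 with a 95% interval of -0.17 to 0.14. Rab13, a tight junction GTPase, had one of -0.19 (-0.62 to 0.23) and Rab26, of secretory granules, one of -0.48 (adjusted p = 0.510).

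Late endosome, lysosome and autophagy genes gave 2 falls and 0 rises among 6 tested genes by limma (33.3% passed, beside 20.5% of all genes). At an unadjusted p under 0.05 the counts were again 2 and 0. With 6 genes, and roles chosen with earlier results known, these counts do not describe the compartment as a whole. Rab29, also of the Golgi, was counted here and not among the Golgi genes. Rab29, a GTPase of the Golgi and lysosome that binds the kinase Lrrk2, had signals of 423 and 382 on the control arrays and of 263 and 293 on the Chd4 RNAi arrays. It fell 1.45-fold (log2 -0.53 ± 0.15 SE, adjusted p = 0.0259). Rab34, which acts in lysosome positioning and in the early steps of ciliogenesis, had 938 and 788 against 649 and 681 and fell 1.29-fold (log2 -0.37 ± 0.11 SE, adjusted p = 0.0369). In both genes the 2 Chd4 RNAi arrays lay below the 2 controls.

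Fitted among probe sets, the brightest of Rab34 had an adjusted p of 0.0505. The second had a log2 difference of -0.31 (adjusted p = 0.169 among probe sets); Rab29 has 1 probe set. The Rab29 call was kept in 7 of 13 alternatives and that of Rab34 in 4. The Rab29 call ended without control replicate 1 (-0.46), control replicate 2 (-0.61) or Chd4 RNAi replicate 1 (-0.46), at adjusted p between 0.0540 and 0.149. That of Rab34 ended without control replicate 1 (-0.24), Chd4 RNAi replicate 1 (-0.34) or Chd4 RNAi replicate 2 (-0.41), at adjusted p between 0.0549 and 0.268.

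Rab7, the main GTPase of late endosomes and lysosomes, had 4998 and 4794 on the control arrays and 5252 and 5407 on the Chd4 RNAi arrays. These groups did not overlap, but the difference of 0.12 (95% interval -0.0010 to 0.25) did not pass, and the second probe set of Rab7 had one of -0.079. Rab9, which returns mannose 6-phosphate receptors to the Golgi, had a difference of -0.098 (-0.23 to 0.034), Rab24, linked to autophagy, one of 0.11 and Rab12 one of -0.021. The mean signal of Rab7b was under the filter and it was not tested. Its signals of 54.0 and 73.6 on the control arrays and 13.0 and 5.55 on the Chd4 RNAi arrays were all under the median of all probe sets.

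Of the 6 tested early endosome genes 0 rose and 0 fell by limma, while 20.5% of all genes passed. At an unadjusted p under 0.05, 1 member was higher and 0 lower. That member was Rab5a, a master regulator of endocytic fusion, with 4363 and 4935 on the control arrays and 5109.7 and 5202 on the Chd4 RNAi arrays (log2 0.15, 95% interval 0.0056 to 0.30, adjusted p = 0.133). It passed without control replicate 2 (0.24, adjusted p = 0.0430). Its relatives Rab5b and Rab5c had differences of 0.069 (-0.43 to 0.57) and -0.095 (-0.27 to 0.079). Rab21, of integrin endocytosis, had 0.16, Rab22a 0.029 and Rab31 0.039, and Rab20 was too dim to be tested.

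The melanosome-related pair Rab32 and Rab38, which also serve lysosome-related organelles, had differences of -0.79 (95% interval -2.18 to 0.61) and -0.63 (-1.26 to 0.000089) and did not pass. Rab38 had signals of 129 and 130 on the control arrays and 95.6 and 73.2 on the Chd4 RNAi arrays, without overlap. The cilium genes Rab23, an inhibitor of Hedgehog signalling, and Rab28 had differences of 0.0075 and 0.0068, with 95% intervals of -0.16 to 0.18 and -0.20 to 0.21. Rab40c, of a ubiquitin ligase complex, and Rab42 had -0.013 and 0.44 (adjusted p = 0.941 and 0.567).

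**Figure D3:**
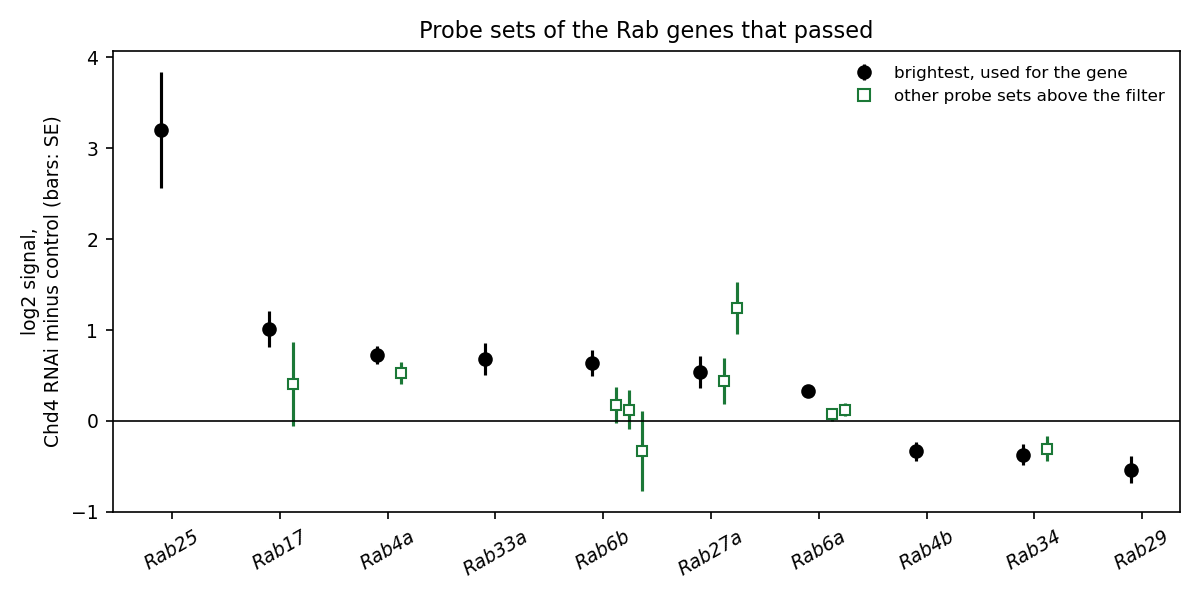
Log2 difference, Chd4 RNAi minus control, with its SE for every probe set above the filter of the 10 Rab genes that passed. Black circles are the brightest probe set, which stands for the gene, and open squares the others, of which those of Rab4a (0.53) and 1 of Rab27a (1.24) passed in the same direction and 1 of Rab6b (-0.33) lies on the other side of 0.

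Set side by side by number, 14 Rab numbers had more than 1 gene, 31 genes in all, and in 4 of these numbers at least 1 gene passed. Rab6 was the only number with both genes higher and Rab4 the only one with genes called in opposite directions, while in Rab27 and Rab33 1 of 2 passed. The difference between the changes of like-numbered genes was not tested. The 7 untested genes (Rab3c, Rab7b, Rab9b, Rab20, Rab37, Rab40b and Rab44) had mean signals under 42.4, and of the 52 tested genes 4 had a dimmer group under it, Rab25 and 3 that did not pass.

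Genes that act on the Rab proteins passed at 8.33% (effectors), 9.09% (tethers), 15.9% (GEFs), 18.4% (GAPs) and 28.6% (prenylation factors) of those tested, beside 20.5% of all genes. In the list of prenylation and membrane delivery factors 1 of 7 tested genes rose and 1 fell. Rabggta, the alpha subunit of the enzyme that attaches the lipid anchor to Rab proteins, rose from 867 and 754 to 1194 on one Chd4 RNAi array and 1195 on the other (log2 0.56 ± 0.097 SE, adjusted p = 0.00222). Rabac1, which encodes a prenylated Rab acceptor, fell from 2501 and 2210.0 to 1754 and 1785 (log2 -0.41 ± 0.078, adjusted p = 0.00398). The groups of both genes were separate. Over the 7 genes the median was 0.013 on the log2 scale.

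Exchange factors gave 6 rises and 1 fall among 44 tested genes, with a median of 0.11 against 0.014 for all genes. Dennd2c, a DENN domain GEF, showed the fall, from 1275 and 1318 to 731 and 894 (log2 -0.68 ± 0.11 SE, adjusted p = 0.00124). The 5 rises with the smallest p were those of Ccz1, part of the Rab7 exchange factor, by 0.29, Dennd6a, a GEF of Rab14, by 0.47, Als2cl, related to the Rab5 GEF alsin, by 0.66, Rin2, a Rab5 GEF, by 0.78, and the TRAPP subunit gene Trappc2l by 0.24. Their adjusted p values were 0.00969, 0.0149, 0.0210, 0.0389 and 0.0407. The remaining rise was that of Rab3ip, a Rab8 GEF, by 0.25 (adjusted p = 0.0466).

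GTPase-activating proteins gave 3 rises and 4 falls among 38 tested genes (median 0.14). Tbc1d13, a GAP of Rab35, rose from 358 and 305 to 556 and 547 (log2 0.74 ± 0.13 SE, adjusted p = 0.00305). Tbc1d5, a GAP of Rab7 bound to retromer, rose by 0.73 (adjusted p = 0.00781) and Tbc1d10b by 0.32 (adjusted p = 0.0179). Tbc1d16, known as a GAP of Rab4a, fell by 0.49 from 385 and 404 to 282 and 279.8 (adjusted p = 0.0315). Tbc1d12 and Tbc1d24 fell by 0.51 and 0.64 (adjusted p = 0.0353 and 0.0435). Tbc1d4, a GAP of Rab10 in glucose transporter traffic, showed the largest change of the regulators that passed, from 97.4 and 110.4 to 36.3 and 54.7 (log2 -1.22 ± 0.38 SE, adjusted p = 0.0442). Both Chd4 RNAi values lay under the median of all probe sets, and with dim signals raised to it the fall was at least 1.36-fold. Tbc1d4 and Rab3ip lie outside the naming rule and were named after their values were seen.

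Effectors gave 2 rises and 1 fall among 36 tested genes (median 0.14). The motor gene Myo5c rose by 0.56 and Micall1, of recycling tubules, by 0.66, while Rabep2, a rabaptin that binds Rab4 and Rab5, fell by 0.32 (adjusted p = 0.0297, 0.0323 and 0.0359). For Myo5c the sign turned when its probe sets were averaged (log2 -0.12). In the tethering complexes 1 of 22 rose, the Golgi tether gene Vps53 by 0.45 (adjusted p = 0.0497), and 1 fell, the exocyst gene Exoc3 by 0.30 (adjusted p = 0.0210; median of the list 0.024). Of 5 tested Rab-like genes outside the symbol rule 0 passed by limma, with 0 higher and 1 lower at an unadjusted p under 0.05 (median -0.10).

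Of these 21 regulators only Dennd2c, Tbc1d13, Rabggta and Rabac1 kept their calls without each array in turn. Leaving out control replicate 1 or control replicate 2 ended 13 calls each, and leaving out Chd4 RNAi replicate 1 or Chd4 RNAi replicate 2 ended 11 each. Those of Rin2, Trappc2l, Tbc1d16, Rabep2 and Rab3ip ended without any one of the 4 arrays, with adjusted p of up to 0.192, 0.179, 0.147, 0.129 and 0.221. Those of Tbc1d12, Tbc1d24 and Exoc3 ended without either control or without Chd4 RNAi replicate 2 (up to 0.147, 0.231 and 0.0999). Those of Tbc1d10b, Micall1 and Tbc1d4 ended without either control or without Chd4 RNAi replicate 1 (up to 0.0781, 0.208 and 0.202). The call of Dennd6a rested on control replicate 1 and Chd4 RNAi replicate 1 (up to 0.0960), those of Als2cl and Vps53 on control replicate 2 and Chd4 RNAi replicate 1 (0.103 and 0.264), and that of Myo5c on control replicate 1 and Chd4 RNAi replicate 2 (0.150). Ccz1 and Tbc1d5 did not pass without Chd4 RNAi replicate 2 (adjusted p = 0.0546 and 0.0569). All 21 kept their sign in these fits.

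**Figure D4:**
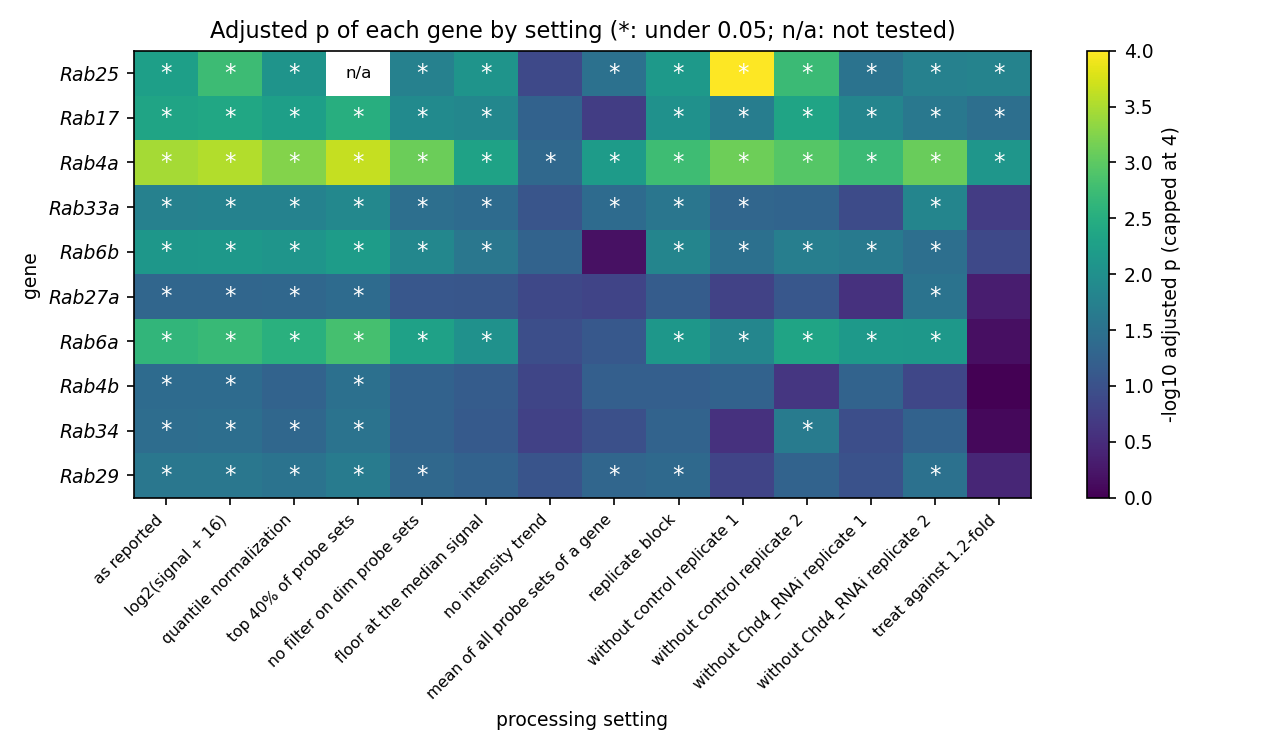
Adjusted p of the 10 Rab genes that passed (rows) as reported and under 13 alternative settings (columns), shown as -log10 by colour, with a star where it was under 0.05. The row of Rab4a has a star in every column, that of Rab25 lacks one only without the intensity trend (and was not tested in the top 40% of probe sets), and that of Rab4b has 2 stars beside the reported setting.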

How the data were processed

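Transcript signals came from 4 single-colour Affymetrix mouse arrays, labelled from total RNA. The authors deposited 1 linear MAS5 intensity per probe set and array, per the submitters' processing notes, with version and scaling target not given in the sources used here. Groups and replicate numbers came from the sample titles. Median signals were 73.4 to 79.4 per array. Pearson's r over genes, which are not independent replicates, was 0.986 and 0.985 between replicates. Precision is limited by having 2 arrays per group. Of 45037 non-control probe sets, 34945 had 1 gene symbol in the platform annotation.

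Log2 signals were fitted in limma 3.58.1 (R 4.3.3; lmFit and eBayes with an intensity trend) over the 12615 genes in the top 60% of probe sets by mean signal (42.4 or more), two-sided, with Benjamini-Hochberg adjustment over all of them and a threshold of 0.05. Probe sets were fitted likewise. Folds marked "at least" raise dim signals to the median, 76.0, a floor chosen after the values were seen. In simulated data of 12615 genes, 67, 67 and 66 genes were changed 1.5-fold, 2-fold and 4-fold, and 35.8%, 70.1% and 90.9% of them were recovered. The adjustment of p depends on the share of genes that change. In the real data 20.5% of genes passed, so these recovery rates do not carry over to it.

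The members, roles, lists and tests were chosen with earlier results of these data known. Every member that passed is named with its values. Tested members sharing its number, or its role in recycling or exocytosis, are named with values, the others by role. From each regulator list up to 6 genes that passed are named, by smallest p, and 2 more were added after their values were seen. Alternatives covered the pseudocount, filter, floor, normalization, choice of probe set, variance model, leaving out each array, a test against 1.2-fold and the replicate number as a block. Detection calls were not used. Protein sequences were not used here.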

Additional observations from a re-analysis of the deposited data

How the results depend on the processing

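The call counts depended on the variance model, the choice of probe set and single arrays. The 7 Rab rises became 1 without the intensity trend, 4 with all probe sets averaged and 3 in the test against 1.2-fold, and were 5 to 8 under the other settings. The 3 Rab falls became 0 with the floor at the median signal, 0 without the trend and 0 against 1.2-fold (5, 6 and 1 at an unadjusted p under 0.05 in limma), 1 with probe sets averaged, and 0 to 1 with 1 array left out. With the replicate number as a block (replicate block) 6 Rab rises and 1 fall passed. The labels do not say whether same-numbered arrays shared a culture or batch. Their deviations from the group means correlated at 0.018 over genes, which are not independent, so this value cannot settle it. The block took all calls from 2592 to 2260. No Rab gene that passed changed sign. The genes Rab8a, Rab5a, Rab11a and Rab35, and the dim Rab7b as lower, passed in 1 alternative each. The Rab8a result, with probe sets averaged (log2 1.42), came from a probe set far under the filter. Its signals were 1.52 and 0.447 on the control arrays and 20.1 and 24.0 on the Chd4 RNAi arrays. The brightest Rab8a probe set had a difference of 0.14 and the remaining one -0.63. For the regulators, whose alternatives were chosen after seeing the data, 13 rises became 7 without a filter, 0 without the trend (18 unadjusted), 4 with probe sets averaged, 1 against 1.2-fold and 5 to 12 with 1 array left out. Their 8 falls became 4, 0 (13 unadjusted), 3, 1 and 2 to 5, and 3 with the floor. Myo5c turned to -0.12 with probe sets averaged. Outside the fewer samples or the higher bar that an alternative sets, the cause was not tested. Signals under the median limit what can be said of dim genes.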
